A study of Mus musculus with 9 samples.

Results

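Insulin signalling in the liver was followed through 8 genes chosen by name. They were the receptor gene Insr, the adaptor genes Irs1 and Irs2, the kinase regulatory subunit gene Pik3r1 and the kinase gene Akt2. The others were the inhibitor gene Grb14, the transcription factor gene Foxo1 and the target gene Igfbp1. All 8 were found among the 55401 genes of the count table. The data are QuantSeq 3' mRNA libraries, in which each read marks the 3' end of 1 polyadenylated transcript, from the left liver lobe, 9 in all. Each group has 3 libraries. The STAM + Atglistatin livers came from male mice given 200 µg of streptozotocin under the skin at 2 days of age. From 4 weeks of age they ate, for 4 weeks, a high-fat diet containing Atglistatin, which blocks the triglyceride-splitting enzyme ATGL. The STAM mice, also male, had that injection and diet without Atglistatin, and the chow mice had none of these. Both STAM groups share the streptozotocin and the diet, so against chow these cannot be told apart. Streptozotocin destroys insulin-producing beta cells, and the model is known for low insulin. Insulin and glucose in these mice were not analysed here.

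As background, insulin binds its receptor on the hepatocyte, and the receptor phosphorylates IRS1 and IRS2. These recruit phosphoinositide 3-kinase, whose product brings AKT2 to the membrane. AKT2 then phosphorylates FOXO1, which leaves the nucleus, so that FOXO1 targets such as Igfbp1 and Irs2 fall after feeding and are high in fasting. Most of this control acts on phosphorylation, which RNA counts do not show, whereas Igfbp1 and Irs2 are controlled in large part at transcription.

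The stretch before the Igfbp1 start site holds the paired insulin response element through which FOXO1 is known to act, and it is shown with the matching stretches of the adaptor genes, since the same letters occur there. Each is the 250 bases before the RefSeq start site (GRCm38.p6), 5′ to 3′ on the gene's strand, and capitals mark TTGTTTTG or TTATTTTG on either strand.
Igfbp1, chr11:7197537-7197786, plus strand: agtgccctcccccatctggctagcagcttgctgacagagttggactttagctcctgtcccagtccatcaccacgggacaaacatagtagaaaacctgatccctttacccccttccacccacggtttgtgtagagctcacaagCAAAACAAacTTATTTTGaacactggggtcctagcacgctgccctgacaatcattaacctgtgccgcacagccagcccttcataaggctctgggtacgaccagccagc
Irs2, chr8:11008930-11009179, minus strand: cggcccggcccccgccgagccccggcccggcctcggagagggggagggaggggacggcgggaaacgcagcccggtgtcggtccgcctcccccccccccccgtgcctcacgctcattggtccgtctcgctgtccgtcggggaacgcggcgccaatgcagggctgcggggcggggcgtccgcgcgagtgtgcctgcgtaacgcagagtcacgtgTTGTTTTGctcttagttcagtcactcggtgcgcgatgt
Irs1, chr1:82291440-82291689, minus strand: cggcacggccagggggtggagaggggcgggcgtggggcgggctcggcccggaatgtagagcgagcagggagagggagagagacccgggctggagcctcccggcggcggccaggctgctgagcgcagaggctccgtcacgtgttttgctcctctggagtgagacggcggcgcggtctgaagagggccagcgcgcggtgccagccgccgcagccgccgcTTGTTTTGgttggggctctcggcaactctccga
In Igfbp1 the motifs stand 2 bases apart, TTGTTTTG on the minus strand (108 to 101 bases before the start) and TTATTTTG on the plus strand (98 to 91 bases before it). Irs2 holds TTGTTTTG 38 to 31 bases before its start, directly after a CACGTG, and Irs1 holds it 33 to 26 bases before its start, apart from a CACGTG at 115 to 110. Of 32841 start-site windows of this length, 2.21% held TTGTTTTG, 1.49% TTATTTTG, 3.63% either and 0.0700% both, while 6.02% held CACGTG. Both strands were searched. Of the 7 members with a window, Akt2, Pik3r1, Grb14 and Foxo1 held none of these motifs (Akt2 has 4 windows and Pik3r1 has 2), and none of the 7 held the FOXO consensus GTAAACA, which 3.17% of windows held. The Insr window was not analysed here.

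Library totals were 7.38 to 9.89 in units of 1e6 counts, and 12660 genes, all 8 members among them, had enough counts to be tested. Chow replicate 7 stood apart: the summed level of 18 proliferation genes was 186 CPM there (counts per 1e6 after scaling), against 38.2 and 54.7 CPM in the other chow libraries, and that of 12 stellate cell markers was 896 CPM, against 525 and 555 CPM. The liver label was met: the 13 hepatocyte markers found had counts in every library. Their summed level was 87332 to 90773 CPM in STAM + Atglistatin, 66926 to 76449 CPM in STAM and 108332 to 123113 CPM in chow, so the 3 groups did not overlap. Mitochondrial transcripts took 8.64 to 9.73% of counts in STAM + Atglistatin, 11.03 to 11.6% in STAM and 7.32 to 8.78% in chow. Macrophage markers (14 genes) summed to 413 to 585 CPM in STAM + Atglistatin, 447 to 506 CPM in STAM and 368 to 536 CPM in chow. The part of these shifts in the results below was not tested. In whole tissue, fewer hepatocytes and less of a transcript per hepatocyte cannot be told apart.

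None of the 8 genes passed the test in any comparison (edgeR quasi-likelihood test, Benjamini-Hochberg adjusted p under 0.05 over all tested genes). Of all tested genes, 1.79% passed in STAM + Atglistatin against STAM (1.04% higher, 0.742% lower), 3.94% in STAM against chow (1.95% higher, 1.99% lower) and 4.08% in STAM + Atglistatin against chow (2.1% higher, 1.97% lower). At an unadjusted p under 0.05 the members numbered 2, 3 and 1 of 8 in these comparisons, beside 10.2%, 14.5% and 14.8% of all genes. DESeq2 likewise called 0, 0 and 0, and limma-voom with sample weights called 0, 1 and 0, the 1 being Pik3r1. The median absolute log2 fold change of the members was 0.22, 0.31 and 0.34, against 0.22, 0.25 and 0.25 over all tested genes. Groups did not overlap for 3 members in STAM + Atglistatin against STAM, 2 in STAM against chow and 1 in STAM + Atglistatin against chow, beside 17%, 20.7% and 18.6% of all genes. Of all genes, 9.03% had every STAM + Atglistatin library below every chow library, and 0 members did. Any pair of these comparisons shares 1 group of libraries.

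**Figure D1:**
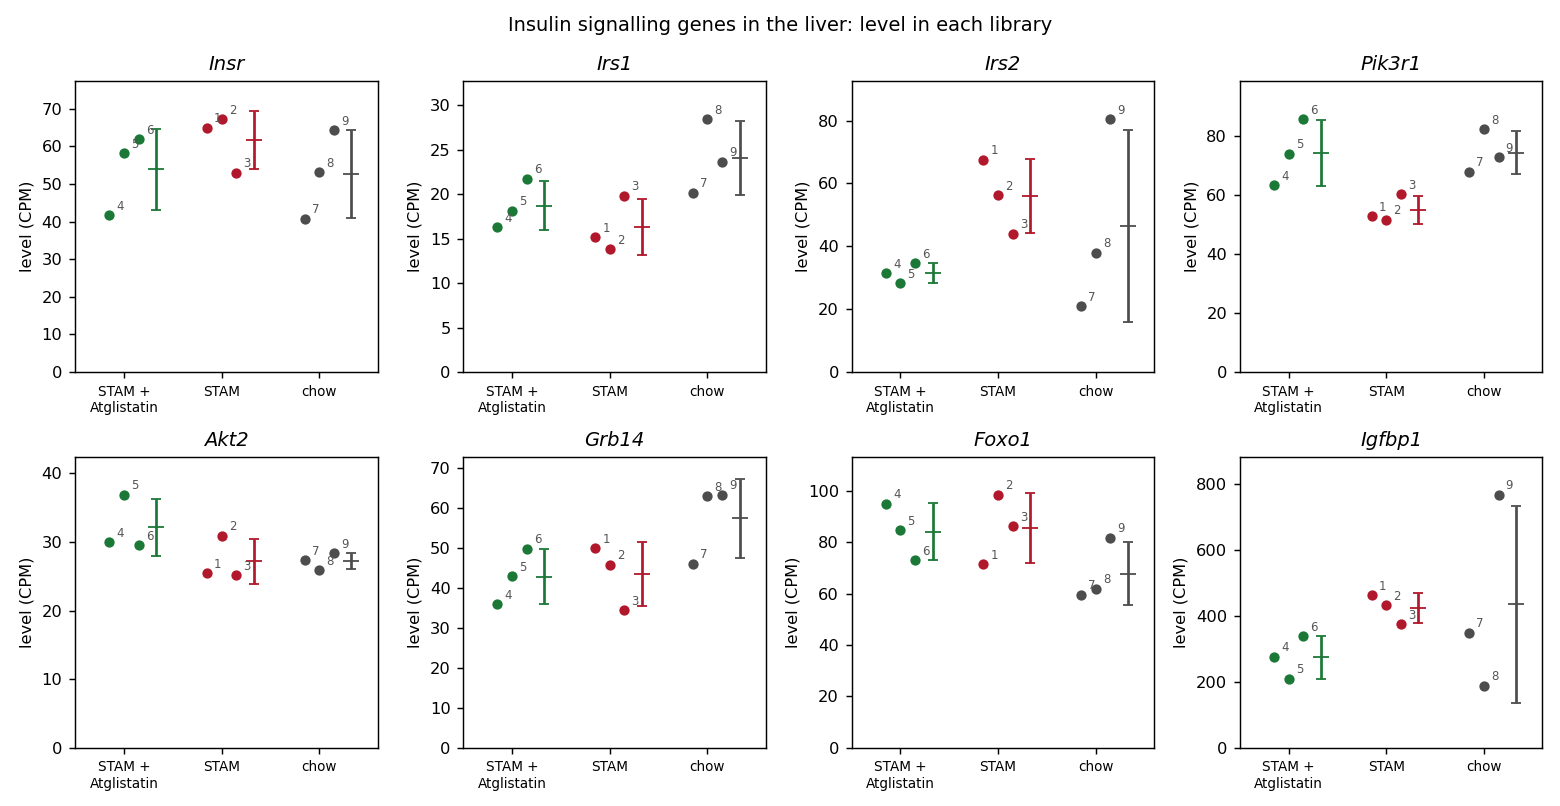
Level of each of the 8 genes (y axis, CPM, linear and from 0) in the 9 libraries by group (x axis). Points are libraries with their replicate number, and the bar beside them is the mean ± SD of n = 3. Irs2 and Igfbp1 in STAM + Atglistatin lie below all STAM libraries, Pik3r1 in STAM lies below all other libraries, and chow libraries are widely spread for Irs2 and Igfbp1.

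Insr encodes the insulin receptor (GRCm38 chromosome 8, 3122061 to 3279617, minus strand, by the GENCODE annotation). It stood at 41.7, 58.1 and 61.9 CPM in STAM + Atglistatin, 65.0, 67.3 and 53.0 CPM in STAM and 40.8, 53.1 and 64.3 CPM in chow. The 3 groups overlapped, with the highest mean in STAM. Its log2 fold change was -0.20 (95% interval -0.58 to 0.19) for STAM + Atglistatin over STAM, 0.23 (-0.15 to 0.62) for STAM over chow and 0.04 (-0.35 to 0.42) for STAM + Atglistatin over chow. These intervals exclude a doubling or a halving of the receptor transcript in all 3 comparisons.

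IRS1 and IRS2 are the adaptors that carry the signal from the receptor, and neither transcript passed the test. Irs1 (chromosome 1, 82233101 to 82291416, minus strand) stood at 16.3, 18.1 and 21.7 CPM in STAM + Atglistatin, 15.1, 13.8 and 19.8 CPM in STAM and 20.2, 28.4 and 23.6 CPM in chow. Every STAM library lay below every chow library, though the nearest, at 19.8 and 20.2 CPM, almost touched, and the treated libraries overlapped both. The log2 fold change of STAM over chow was -0.57 ± 0.21 (SE, edgeR unadjusted p = 0.0155, adjusted p = 0.186), and 10.2% of all tested genes likewise had every STAM library below every chow library. With Atglistatin it was 0.20 ± 0.21 over STAM and -0.36 ± 0.21 over chow.

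Irs2 (chromosome 8, 10984681 to 11008458, minus strand) had 31.4, 28.2 and 34.6 CPM in STAM + Atglistatin, 67.6, 56.3 and 44.0 CPM in STAM and 21.0, 38.0 and 80.5 CPM in chow. All 3 treated libraries lay below all 3 STAM libraries, a separation in this direction shown by 8.45% of all tested genes. Chow replicates 7 and 9 lay beyond both STAM groups, at the low and the high end. The log2 fold change of STAM + Atglistatin over STAM was -0.83 ± 0.31 (edgeR unadjusted p = 0.0164, adjusted p = 0.302), a mean of 31.4 ± 3.21 against 56.0 ± 11.8 CPM (SD, n = 3 each). It passed under 4 of 15 alternatives. With only the STAM groups fitted the adjusted p was 0.00637, without chow replicate 7 it was 0.0363, without chow replicate 9 it was 0.0494 and with no low-count filter 0.000186, in a range up to 0.721 over all of them. The fold change itself ran from -0.98 to -0.68 over these alternatives.

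Against chow, Irs2 had no settled direction. STAM over chow gave 0.28 ± 0.31, which was -0.08 when chow replicate 7 was left out and 0.93 when chow replicate 9 was (edgeR adjusted p = 0.0446; highest over the alternatives, 0.946). STAM + Atglistatin over chow gave -0.56 ± 0.32, which was -0.91 when chow replicate 7 was left out (edgeR adjusted p = 0.0209; highest over the alternatives, 0.932) and 0.09 when chow replicate 9 was. With no low-count filter it also passed (adjusted p = 0.0443).

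Set against each other within a library, Irs2 had 1.93, 1.55 and 1.59 counts per Irs1 count in STAM + Atglistatin, 4.46, 4.08 and 2.22 in STAM and 1.04, 1.33 and 3.41 in chow. This ratio does not depend on scaling, and the treated and STAM libraries did not overlap in it. The sum of both adaptors was 47.7, 46.3 and 56.3 CPM in STAM + Atglistatin, against 82.7, 70.1 and 63.8 CPM in STAM, and 41.2, 66.4 and 104 CPM in chow. With 3 libraries against 3 an exact permutation test could not go below p = 0.1, so none was run on the ratio.

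**Figure D2:**
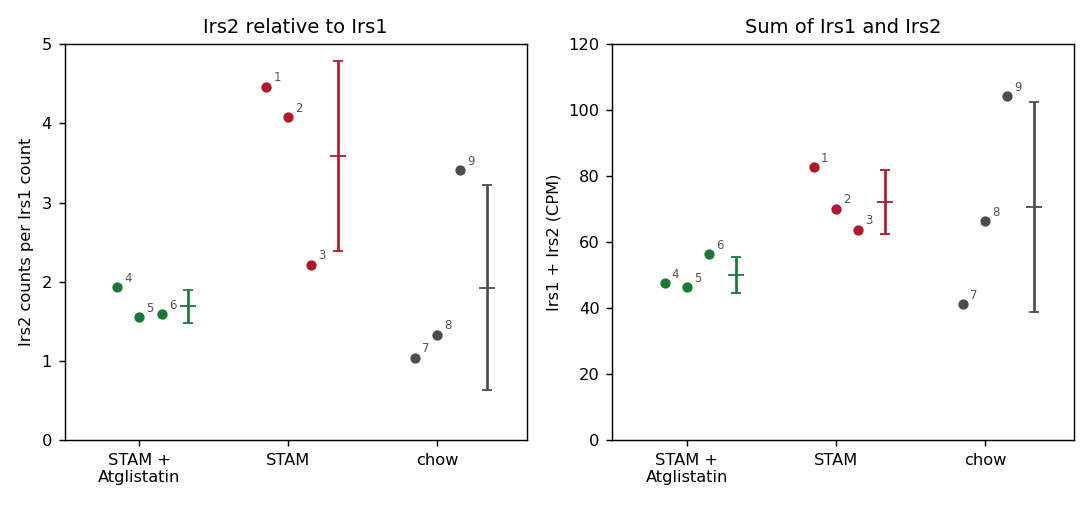
Left, Irs2 counts per Irs1 count; right, the sum of Irs1 and Irs2 (CPM), in each library by group (x axis). Points are libraries with their replicate number and bars are mean ± SD of n = 3. STAM + Atglistatin lies below STAM in both panels (1.55 to 1.93 against 2.22 to 4.46 for the ratio). Chow spans both groups in the sum (41.2 to 104 CPM). In the ratio chow runs from 1.04 to 3.41, and STAM replicates 1 and 2 lie above it.

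Pik3r1 encodes the regulatory subunits p85α, p55α and p50α of phosphoinositide 3-kinase (chromosome 13, 101680563 to 101768217, minus strand). It had 63.5, 74.2 and 85.9 CPM in STAM + Atglistatin, 53.0, 51.7 and 60.3 CPM in STAM and 68.0, 82.6 and 73.0 CPM in chow. The STAM libraries lay below all 6 others, and the treated and chow libraries overlapped throughout. STAM over chow gave a log2 fold change of -0.44 ± 0.15 (edgeR unadjusted p = 0.00767, adjusted p = 0.122), and STAM + Atglistatin over STAM gave 0.44 ± 0.14 (edgeR unadjusted p = 0.00749, adjusted p = 0.201). Of all tested genes, 8.58% had every treated library above every STAM library, and 10.2% had every STAM library below every chow library. The share with both was not counted. The 2 fold changes rest on the same STAM libraries and are not independent of each other. STAM + Atglistatin over chow gave 0.00 with a 95% interval of -0.30 to 0.30. With limma-voom the STAM over chow value was -0.47 and passed (adjusted p = 0.0400), in a range of adjusted p up to 0.386 over 15 alternatives.

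Akt2 encodes the AKT form that carries most of insulin's metabolic action in the liver (chromosome 7, 27591552 to 27640826, plus strand). It had 30, 36.9 and 29.5 CPM in STAM + Atglistatin, 25.4, 30.9 and 25.1 CPM in STAM and 27.4, 25.9 and 28.4 CPM in chow. The treated libraries lay above all chow libraries by a small margin, as did 9.6% of all tested genes, and overlapped STAM. Log2 fold changes were 0.24 ± 0.17 over STAM and 0.24 ± 0.17 over chow with Atglistatin, and -0.00 for STAM over chow, with a 95% interval of -0.36 to 0.35. Its within-group SD of 0.15 on the log2 scale was the smallest of the 8 members, and 12.5% of all tested genes had a smaller one.

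Grb14 encodes an adaptor that binds the activated insulin receptor and inhibits its kinase (chromosome 2, 64912476 to 65024987, minus strand). It had 35.9, 42.9 and 49.8 CPM in STAM + Atglistatin, 50.0, 45.8 and 34.5 CPM in STAM and 46.1, 63.0 and 63.4 CPM in chow. Chow replicates 8 and 9 lay above all 6 libraries of the STAM groups, while chow replicate 7 lay among them. The log2 fold change was -0.42 ± 0.18 for STAM + Atglistatin over chow (edgeR unadjusted p = 0.0303, adjusted p = 0.266) and -0.40 ± 0.18 for STAM over chow (unadjusted p = 0.0380, adjusted p = 0.303). Over 15 alternatives each, these ran from -0.56 to -0.31 and from -0.54 to -0.26, and neither passed in any. Between the STAM groups it was -0.02, with a 95% interval of -0.40 to 0.36.

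Foxo1, the transcription factor that insulin shuts out of the nucleus (chromosome 3, 52268336 to 52353221, plus strand), had 95.02, 84.7 and 73.0 CPM in STAM + Atglistatin. STAM livers had 71.5, 98.6 and 86.4 CPM, and chow livers 59.7, 61.9 and 81.9 CPM. Chow replicates 7 and 8 were the lowest of the 9 libraries, and chow replicate 9 lay among the STAM groups. Log2 fold changes were 0.34 ± 0.16 for STAM over chow (edgeR unadjusted p = 0.0514, adjusted p = 0.347) and 0.31 ± 0.16 for STAM + Atglistatin over chow (unadjusted p = 0.0661, adjusted p = 0.376). Between the STAM groups the value was -0.02, with a 95% interval of -0.36 to 0.31.

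Igfbp1 encodes a secreted protein that binds insulin-like growth factors and is a classic read-out of FOXO1 activity in the hepatocyte (chromosome 11, 7197782 to 7202546, plus strand). Its level was 275, 209 and 338 CPM in STAM + Atglistatin, 462, 431 and 374 CPM in STAM and 348, 188 and 767 CPM in chow. As for Irs2, every treated library lay below every STAM library, and the chow libraries spanned the whole range. The log2 fold change of STAM + Atglistatin over STAM was -0.62 ± 0.32 (edgeR unadjusted p = 0.0652, adjusted p = 0.551), a mean of 274 ± 64.7 against 422 ± 45.0 CPM (SD, n = 3 each). It passed with only the STAM groups fitted (adjusted p = 0.0191) and with no low-count filter (0.000261), in a range up to 0.828 over 15 alternatives.

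Against chow, Igfbp1 rested on single chow libraries. STAM over chow was -0.04 (95% interval -0.70 to 0.63) with all libraries and 0.66 without chow replicate 9 (edgeR adjusted p = 0.164). STAM + Atglistatin over chow was -0.66 ± 0.32 (adjusted p = 0.343), 0.03 without chow replicate 9 and -1.02 without chow replicate 8 (adjusted p = 0.0275). With no low-count filter it passed too (adjusted p = 5.62e-05, in a range up to 0.979). The treated and chow libraries overlapped, though, and with the filter the edgeR unadjusted p was 0.0520. The chow coefficient of variation was 68.9% for Igfbp1 and 66.0% for Irs2, against 4.54 to 22.3% for the other members. The STAM group varied by 10.7% for Igfbp1 and 21.1% for Irs2.

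**Figure D3:**
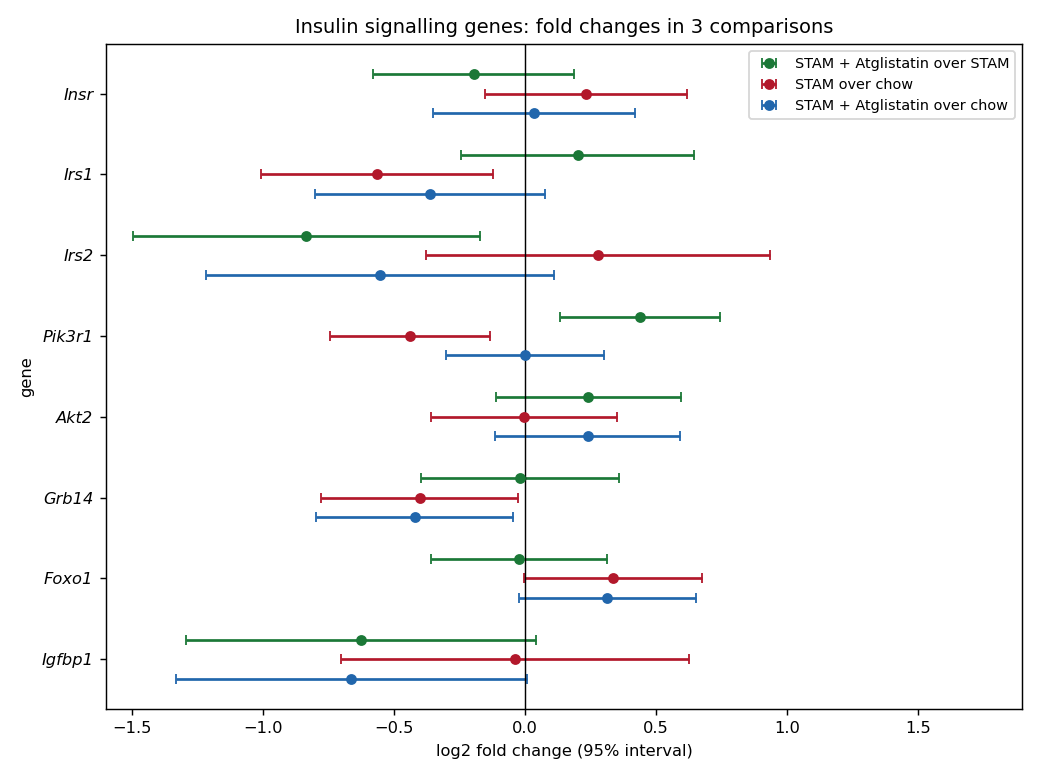
Log2 fold change (x axis) of the 8 genes (y axis) in 3 comparisons, from edgeR with all 9 libraries; points are estimates and bars their 95% intervals, and the vertical line marks no change. None passes after adjustment. The lowest estimate is -0.83, for Irs2 in STAM + Atglistatin over STAM, and the highest is 0.44, for Pik3r1 in the same comparison.

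The chow libraries also differed among themselves. Of the 8 members, 6 had their highest chow level in replicate 9 (Insr, Irs2, Akt2, Grb14, Foxo1 and Igfbp1) and 0 in replicate 7, whereas replicate 9 was the highest chow library for 31.1% of all tested genes. With library totals in place of scaled ones the count was 4 of 8, beside 23.1% of all genes. Of the 18 other genes listed as repressed by insulin through FOXO1, 10 were highest in chow replicate 9 under either scaling. Pck1, the enzyme gene that starts gluconeogenesis, had 3166 CPM in chow replicate 9, against 1318 and 1989 CPM in replicates 7 and 8, and was picked out after its values were seen. Other genes of that list went the other way: with scaled totals, 4 were highest in replicate 7 and 4 in replicate 8. Gadd45a had 1.63 CPM in replicate 9, against 7.93 and 6.75 CPM in replicates 7 and 8. Angptl8 had 24.1 CPM in replicate 9, against 145 and 163 CPM in replicates 7 and 8. It also stands in the list of insulin-induced genes and is known to rise with insulin, so its direction cannot be read as for the rest of this list. Library totals and chow replicate 7's proliferation and stellate signals differ between these mice as well, and their part was not tested.

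Among the relatives of the members, Igfbp2, which encodes another binding protein secreted by the liver, had 322, 294 and 237 CPM in STAM + Atglistatin, 225, 280 and 208 CPM in STAM and 176, 205 and 201 CPM in chow. With all libraries, it was the 1 of 14 tested paralogues that passed, in 1 comparison: it rose by 0.55 ± 0.14 on the log2 scale in STAM + Atglistatin over chow (edgeR adjusted p = 0.0343). That call was lost with only those groups fitted and without STAM + Atglistatin replicate 4 or 5, STAM replicate 1 or any 1 chow library (adjusted p 0.0509 to 0.174). Pik3r3, a regulatory subunit gene related to Pik3r1, passed as higher only when chow replicate 7 was left out, in STAM over chow (edgeR adjusted p = 0.0222) and STAM + Atglistatin over chow (0.0251). It had 9, 26 and 11 counts in STAM + Atglistatin, 19, 14 and 12 in STAM and 9, 0 and 0 in chow, so that fit sets it against chow libraries at 0. Igfbp4 averaged 1139 ± 76.6, 1188 ± 120 and 1160 ± 150 CPM in STAM + Atglistatin, STAM and chow, and Igfbp7 168 ± 12.8, 155 ± 15.3 and 160 ± 32.4 CPM (SD, n = 3 each). Igfbp3 averaged 7.79 ± 2.93, 10.1 ± 2.83 and 11.9 ± 0.938 CPM, Igfbp5 10.7 ± 3.70, 9.35 ± 1.57 and 6.25 ± 2.22 CPM, and Igfbp6 was too low to be tested, with 60 counts in all.

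Akt1, Foxo3 and Foxo4 did not pass in any comparison by edgeR, DESeq2 or limma-voom, since the 1 paralogue that each called, in STAM + Atglistatin against chow, was Igfbp2. Akt1 averaged 31.2 ± 7.25, 26.9 ± 2.30 and 24.9 ± 0.459 CPM in STAM + Atglistatin, STAM and chow. Foxo3 averaged 36.9 ± 8.14, 44.8 ± 3.20 and 41.4 ± 1.21 CPM, and Foxo4 14.9 ± 5.27, 16.5 ± 2.95 and 18.5 ± 1.77 CPM (SD, n = 3 each). Irs3, Irs4 and Foxo6 had no count in any library, which at 3 counts allows up to 0.301 to 0.443 CPM per library, so Irs1 and Irs2 were the only IRS transcripts detected at this depth. The insulin genes Ins1 and Ins2 had none either.

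The share of the wider pathway that passed was not above that of all tested genes. Of 68 other genes listed for the receptor and its adaptors, the phosphoinositide 3-kinase and AKT branch and the brakes on signalling, 65 were tested. By edgeR none rose or fell in STAM + Atglistatin against STAM, with 5 at an unadjusted p under 0.05 and 0 by DESeq2 or limma-voom, where 1.79% of all genes passed and 10.2% had such a p. In STAM against chow 1 fell and none rose, with 10 at an unadjusted p under 0.05, where 3.94% of all genes passed and 14.5% had such a p. In STAM + Atglistatin against chow 1 fell and none rose, with 11, where the shares were 4.08% and 14.8%. The direction of these few calls was not settled: with library totals, 2 rose and 0 fell in STAM against chow, and 1 rose and 1 fell in STAM + Atglistatin against chow. With no low-count filter 2 fell in STAM + Atglistatin against STAM, and 1 rose and 4 fell in STAM + Atglistatin against chow. DESeq2 called 1 higher and 2 lower in STAM against chow and 2 lower in STAM + Atglistatin against chow. For limma-voom it was 1 higher and 2 lower in each. The shares of all genes above belong to edgeR with TMM scaling and the filter, and those under the other settings were not set beside these counts. Calls over all genes also rose with no filter. The median log2 fold changes of the 65 were -0.04, 0.04 and -0.02. With all libraries and TMM scaling, the 1 that fell was in both cases Ceacam1, which promotes the clearance of insulin by the hepatocyte. It had 70.0 ± 8.16 CPM in STAM + Atglistatin, 74.0 ± 7.97 CPM in STAM and 109 ± 16.8 CPM in chow (SD, n = 3 each). The fold change was -0.56 ± 0.15 for STAM over chow (edgeR adjusted p = 0.0409) and -0.64 ± 0.15 for STAM + Atglistatin over chow (0.0179), calls that held in 6 and 11 of 15 alternatives, with adjusted p up to 0.194 and 0.106.

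Of 18 other genes repressed by insulin through FOXO1, 0 passed in STAM + Atglistatin against STAM, though 7 had an unadjusted p under 0.05, against 10.2% of all genes, and the median log2 fold change was -0.09 (DESeq2 called 1 lower and limma-voom 2 lower). With only the STAM groups fitted, or with no low-count filter, 4 fell and 1 rose, without chow replicate 7 it was 4 and 0, and without chow replicate 9 it was 3 and 1. Calls over all genes moved as well, from 132 higher and 94 lower to 73 to 184 and 52 to 148 leaving out 1 library. They also rose with no filter. Counts of this list under other settings, in any comparison, therefore cannot be set against the shares of all genes given here, which belong to the filtered fit of all libraries. The median was 0.06 without STAM + Atglistatin replicate 4, 0.07 without replicate 5 and -0.35 without replicate 6. In STAM against chow 2 fell and 0 rose, beside 1.99% and 1.95% of all genes. Over the alternatives 0 to 4 fell and 0 to 1 rose, with 4 and 0 without chow replicate 7, 1 and 1 without chow replicate 9, and 0 and 0 without chow replicate 8 or STAM replicate 1. The 2 that fell with all libraries were Apoc3, an inhibitor of lipoprotein lipase, at -0.56 ± 0.13 (edgeR adjusted p = 0.0142), and Angptl8, at -1.89 ± 0.43 (0.0159). For Angptl8 the groups overlapped: chow replicates 7, 8 and 9 had 145, 163 and 24.1 CPM, and STAM had 20.7, 36.5 and 32.4 CPM. Angptl8, a feeding-induced hormone that also stands in the list of insulin-induced genes, is known to rise with insulin, and it did not pass with DESeq2 or limma-voom (adjusted p 0.0713 and 0.114). The Apoc3 call was lost when any 1 of chow replicates 8 and 9 and STAM replicates 1 and 2 was left out (adjusted p 0.0571 to 0.101). That of Angptl8 was lost when chow replicate 8, STAM replicate 1 or STAM replicate 3 was (0.0601 to 0.115). In STAM + Atglistatin against chow 2 others fell, named after their values were seen, beside 1.97% lower among all genes. Cited2, a transcriptional co-activator, stood at -0.88 ± 0.23, and its groups did not overlap. Bcl6, a transcriptional repressor, stood at -2.05 ± 0.45. Its groups overlapped, with 6.72, 12.1 and 29.0 CPM in STAM + Atglistatin and 24.3, 64.8 and 109 CPM in chow. Over the alternatives 0 to 6 of the list fell, 0 without STAM + Atglistatin replicate 4 or 5 and 6 without chow replicate 7 or with no filter.

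Genes that insulin induces passed in larger number, 20 of 21 being tested. Of these, 12 fell and 0 rose in STAM against chow, with a median log2 fold change of -0.82 against -0.00 over all genes, of which 1.99% fell, and 10 to 14 of the list fell over 15 alternatives. In STAM + Atglistatin against STAM, which shares the STAM libraries, 12 rose and 0 fell, with a median of 1.05, beside 1.04% higher among all genes, and 9 to 16 rose over the alternatives. In STAM + Atglistatin against chow 2 rose and 2 fell, with a median of -0.04, beside 2.1% higher and 1.97% lower among all genes; over the alternatives 2 to 3 rose and 1 to 4 fell. Like the other lists, this list was chosen with earlier results of these data known. Its counts beside the shares of all genes are therefore a description and not an independent test. Most of the listed genes serve fatty acid synthesis or glucose use, and several also respond to sterol and dietary fat signals. Scd1, a fatty acid desaturase, fell by 3.25 ± 0.21 in STAM over chow and rose by 1.78 ± 0.20 in STAM + Atglistatin over STAM. Insig1, which holds the sterol sensor in the endoplasmic reticulum, fell by 1.62 ± 0.16 and rose by 1.46 ± 0.16 in the same comparisons. Fasn, the fatty acid synthase, rose by 2.19 ± 0.21 in STAM + Atglistatin over STAM, and Acacb, an acetyl-CoA carboxylase, fell by 2.10 ± 0.20 in STAM over chow.

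**Figure D4:**
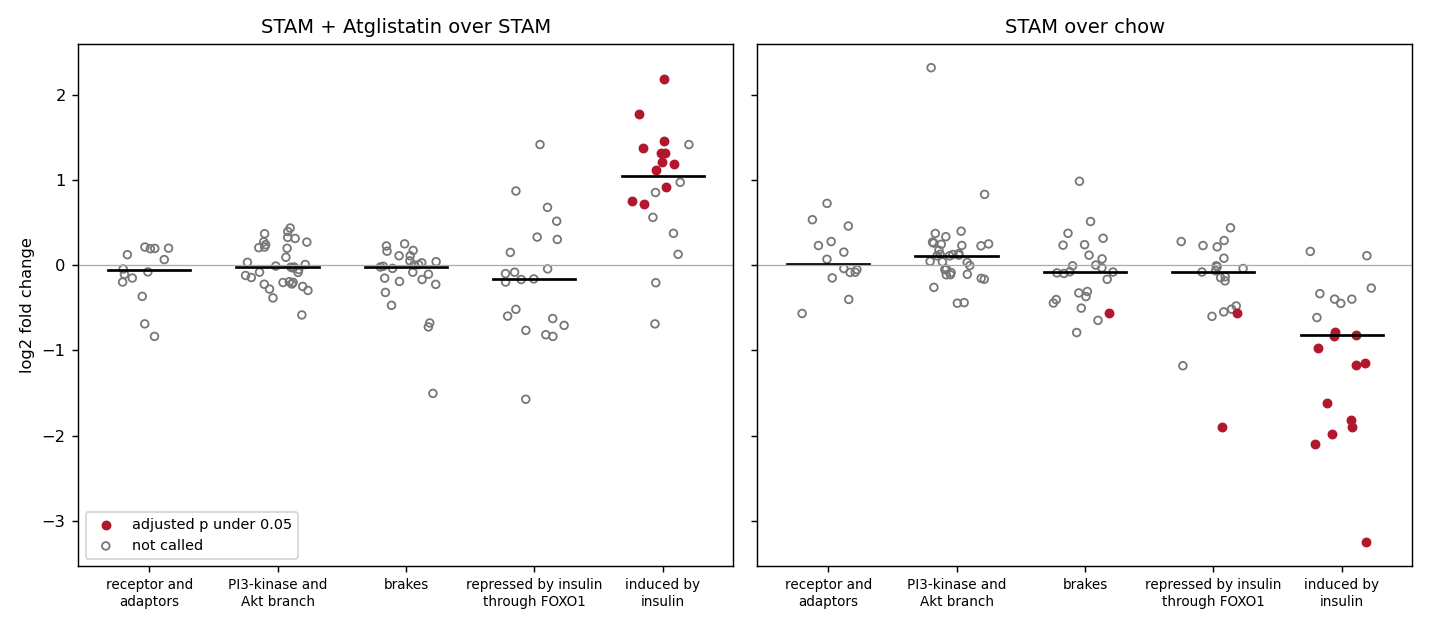
Log2 fold change (y axis) of each tested gene in 5 lists of insulin signalling genes and targets (x axis), for STAM + Atglistatin over STAM (left) and STAM over chow (right). Filled points passed an adjusted p of 0.05, open points did not, and the black line is the list's median. Points of the signalling lists gather around 0, while insulin-induced genes lie mostly above 0 on the left (median 1.05) and below 0 on the right (median -0.82).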

How the data were processed

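Liver RNA (9 samples) was measured with QuantSeq 3' libraries. Titles and design text set the groups, because the treatment characteristic given for chow and STAM samples contradicts them. Per the submitters' processing notes, reads were aligned with STAR to GRCm38; for the counting tool, annotation release and strand setting, the entry is: not given in the sources used here. Members that overlap genes on the other strand (Insr, Irs1, Irs2, Foxo1) could therefore hold reads from those, and Foxo1 and Pik3r1 also overlap a gene on their own strand. The deposited table of the authors holds raw counts per gene; the authors' own fold changes in it were not used. The 7 ribosomal RNA entries (0.260 to 0.529% of counts) were left out.

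The quasi-likelihood test of edgeR 4.0.16 (R 4.3.3) was run on the counts after filterByExpr and TMM scaling, with 1 fit to all 9 libraries for 3 comparisons, Benjamini-Hochberg adjusted over 12660 genes. CPM values use TMM-scaled totals. Intervals are 95%, with the test's moderated degrees of freedom. Alternatives were a fit of only the groups compared, limma-voom (limma 3.58.1) with sample weights, DESeq2 1.42.0, its size factors, library totals, no filter on low counts, and leaving out each library. The scripts were tested on simulated data. Pairs of libraries within a group differed by more than counting noise (chi-square over degrees of freedom 7.35 to 19.5). The labels list 9 samples and do not say that each is its own animal, so p-values measure the spread between samples. Members, lists and rules were chosen with earlier results of these data known. Named were all 8 members, up to 3 called genes of smallest p per list and direction in the first 2 comparisons, and the Igfbp1, Irs, Akt and Foxo paralogues; some items are not reported here. Gene positions and overlaps are from GENCODE M21 and promoter sequences from RefSeq, both GRCm38. One listed marker, Tf, was not found in the table. Floors of 3 counts cover counting error only.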

Additional observations from a re-analysis of the deposited data

How the results depend on the processing

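The count of 0 of 8 members passing held in all 3 comparisons with DESeq2 size factors, with library totals and with DESeq2. With no low-count filter 2 members passed in STAM + Atglistatin against STAM and 2 in STAM + Atglistatin against chow (Irs2 and Igfbp1 in both), with only the groups compared 2 passed in STAM + Atglistatin against STAM (Irs2 and Igfbp1), and with limma-voom 1 passed in STAM against chow (Pik3r1). Leaving out 1 library gave 0 to 1 in each comparison. Of the members' values over the alternatives, 34 changed sign, 12 newly passed and 314 did neither. The sign changes outside Irs2 and Igfbp1 were of values near 0. Akt2 in STAM over chow was 0.0018 with DESeq2 size factors, 0.085 with library totals, 0.00026 with no filter, 0.0019 with DESeq2 and 0.0025 with only those groups. Igfbp1 in STAM over chow was 0.069 with library totals and 0.12 with limma-voom. With limma-voom, Foxo1 in STAM + Atglistatin over STAM was 0.021, and Insr and Pik3r1 in STAM + Atglistatin over chow were -0.035 and -0.036, while Pik3r1 was -0.00090 there with no filter. Leaving out each library in turn, values ran from -0.11 to 0.051 for Akt2, -0.40 to 0.66 for Igfbp1 and -0.076 to 0.93 for Irs2 in STAM over chow. In STAM + Atglistatin over STAM they ran from -0.16 to 0.092 for Grb14 and -0.14 to 0.092 for Foxo1. In STAM + Atglistatin over chow they ran from -0.12 to 0.20 for Insr, -0.91 to 0.093 for Irs2, -0.12 to 0.10 for Pik3r1 and -1.02 to 0.030 for Igfbp1.

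Over all genes, STAM + Atglistatin against STAM had 132 higher and 94 lower, which became 203 and 189 with no filter, 145 lower with only those groups, and 73 to 184 higher and 52 to 148 lower leaving out 1 library. STAM against chow had 247 and 252, with 373 higher with no filter, 405 lower with limma-voom, and 140 to 350 and 151 to 374 leaving out 1 library. STAM + Atglistatin against chow had 266 and 250, with 379 lower with no filter, and 164 to 376 and 132 to 381 leaving out 1 library. The causes were not tested. No paired analysis was possible because the replicate numbers differ between all groups. With 3 libraries per group, the intervals of Irs2 and Igfbp1 in STAM + Atglistatin over chow hold both no change and a log2 fold change of -1.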
